A study of Rattus norvegicus with 22 samples.

Results

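The 42 genes described here drive or carry out cell division, and they were chosen by gene symbol from a list of cell cycle and DNA replication genes. The list was split into 4 genes of the G1 phase, 16 of DNA replication and 22 of mitosis. On rat Affymetrix arrays with 14217 named genes, 40 of the 42 were measured: all 4 G1 genes, 15 replication genes and 21 mitotic genes. Of the other 2, Rrm2 shared each of its probe sets with another gene and was not assigned, and Tpx2 was not named by the probe annotation used here. Where a gene had several probe sets, the one with the highest mean over all arrays stood for it.

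Spinal cord of rats was profiled on 22 arrays in 8 groups, at thoracic level 10 per the labels. In the contused groups a 10 g weight with a tip of 2.5 mm fell from 25 mm onto the cord, and the cord was taken 24 h later. On top of the contusion came clenbuterol at 150 mg/kg (2 arrays), X-rays at 10 Gy (3 arrays), the radical scavenger tempol at 275 mg/kg (3 arrays), buthionine sulfoximine, an inhibitor of glutathione synthesis here called BSO, at 150 mg/kg (3 arrays), or tempol plus BSO at those doses (3 arrays). The clenbuterol dose is given as the labels have it and is very high for this drug, and its unit could not be checked. Clenbuterol, a beta-2 adrenergic agonist, X-rays and tempol followed the injury by 20 min, whereas BSO preceded it by 24 h. A contusion group without treatment (2 arrays), a laminectomy group in which bone was removed without contusion (3 arrays) and a normal group (3 arrays) served as controls. Strain, age and sex are not given in the sources used here, nor are the collection times of laminectomy and normal cord or whether arrays stand for separate animals, so p-values measure only the spread between these samples, which may be technical. All 5 treated groups carried the contusion.

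A dividing cell passes the G1 phase under cyclin D and CDK4, and cyclin E with CDK2 then opens DNA synthesis. E2F factors switch on the replication genes at that point: the Mcm2 to Mcm7 helicase, the clamp Pcna and its loader, primase, and the enzymes that supply nucleotides. Later the CDK1 cyclins, Aurora and Polo kinases, kinesins and the anaphase-promoting complex carry mitosis, and their genes are commonly switched on through CCAAT boxes and a CHR element. Few cells of the adult cord divide, mainly glial progenitors, while microglia, astrocytes, endothelium and ependyma are known to divide in the days after an injury. In whole tissue, fewer cells of a type and less RNA per cell cannot be told apart.

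Promoters of 6 members are printed because these genes recur in the comparisons below and because they show how the replication and mitotic genes differ in sequence. They are RefSeq promoter windows on GRCr8, 250 bases before to 50 after the gene's start, matched by symbol. Capitals mark CCAAT, the CHR letters TTTGAA, and the E2F-type letters TTTNNCG with C or G at each N, each sought on both strands. The first 4 are mitotic genes, the last 2 replication genes.
Cdk1, chr20:19265043-19265342, plus strand: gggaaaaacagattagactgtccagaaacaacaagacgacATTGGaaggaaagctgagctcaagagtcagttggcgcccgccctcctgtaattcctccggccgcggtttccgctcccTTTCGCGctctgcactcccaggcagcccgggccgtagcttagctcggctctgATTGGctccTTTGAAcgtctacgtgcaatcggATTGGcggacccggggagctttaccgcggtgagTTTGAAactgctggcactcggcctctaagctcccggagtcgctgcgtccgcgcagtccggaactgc
Ccnb2, chr8:79981609-79981908, minus strand: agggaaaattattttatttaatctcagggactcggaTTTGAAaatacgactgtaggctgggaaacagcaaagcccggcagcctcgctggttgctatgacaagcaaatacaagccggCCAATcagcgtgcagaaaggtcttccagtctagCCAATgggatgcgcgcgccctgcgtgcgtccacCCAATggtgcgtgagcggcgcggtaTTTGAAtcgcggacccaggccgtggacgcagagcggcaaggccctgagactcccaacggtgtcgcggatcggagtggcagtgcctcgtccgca
Cks2, chr17:13727470-13727769, minus strand: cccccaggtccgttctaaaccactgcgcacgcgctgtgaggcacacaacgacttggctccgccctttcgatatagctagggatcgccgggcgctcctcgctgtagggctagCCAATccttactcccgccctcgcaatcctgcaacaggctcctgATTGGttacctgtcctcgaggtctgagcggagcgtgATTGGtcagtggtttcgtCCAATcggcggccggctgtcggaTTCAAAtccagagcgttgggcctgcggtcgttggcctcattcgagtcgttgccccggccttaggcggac
Birc5, chr10:103571896-103572195, plus strand: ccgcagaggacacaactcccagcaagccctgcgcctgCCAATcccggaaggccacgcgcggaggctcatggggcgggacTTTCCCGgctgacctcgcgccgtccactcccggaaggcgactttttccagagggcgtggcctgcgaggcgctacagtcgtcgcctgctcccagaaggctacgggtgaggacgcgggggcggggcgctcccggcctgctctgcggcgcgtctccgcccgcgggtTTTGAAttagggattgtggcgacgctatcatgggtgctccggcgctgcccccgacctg
Mcm6, chr13:42404303-42404602, minus strand: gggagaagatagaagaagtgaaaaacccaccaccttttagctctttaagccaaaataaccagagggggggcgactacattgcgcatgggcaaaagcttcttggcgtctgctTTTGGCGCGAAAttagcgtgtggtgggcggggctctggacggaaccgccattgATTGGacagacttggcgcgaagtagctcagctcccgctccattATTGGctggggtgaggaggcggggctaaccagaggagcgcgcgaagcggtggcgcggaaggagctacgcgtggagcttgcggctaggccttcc
Mcm3, chr9:30733697-30733996, minus strand: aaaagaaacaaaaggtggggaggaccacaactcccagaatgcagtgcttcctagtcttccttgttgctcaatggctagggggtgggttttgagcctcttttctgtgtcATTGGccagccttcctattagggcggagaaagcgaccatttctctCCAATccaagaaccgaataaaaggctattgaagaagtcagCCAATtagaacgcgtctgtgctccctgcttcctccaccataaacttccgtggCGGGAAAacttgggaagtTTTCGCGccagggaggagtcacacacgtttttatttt

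Cdk1 held 3 CCAAT, 2 CHR and 1 E2F-type matches, and Ccnb2 held 3 CCAAT and 2 CHR matches. Cks2 had 4 CCAAT matches and 1 CHR match, and Birc5 had 1 match of each kind. The 2 replication genes carried E2F-type matches, 2 in Mcm6 and 2 in Mcm3, beside CCAAT boxes and no CHR match. Some matches share letters, as 2 bases do in Mcm6, and each was counted. Windows were found for 33 of the 42 members: 17 mitotic, 14 replication and 2 G1 genes. CHR letters lay in 12 of the 17 mitotic windows (70.6%), in 1 of the 14 replication windows (7.14%) and in 18.3% of all 33469 promoters of this length. E2F-type letters lay in 2 mitotic windows (11.8%), in 7 replication windows (50%) and in 6.8% of all promoters. For CCAAT the counts were 16 mitotic (94.1%) and 8 replication windows (57.1%), against 37.5% of all promoters. CCAAT and CHR together stood in 11 mitotic windows (64.7%), no replication window and 7.41% of all promoters. These matches describe letters only. The members without a window here are Mcm4, Rrm2, Ccna2, Ube2c, Aurkb, Racgap1, Tpx2, Ccnd1 and Ccnd2.

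The deposited values were signal intensities, compared on the log2 scale with limma over all 31042 probe sets, and a value after ± is a standard error on that scale. The arrays laminectomy 2 and normal 1 correlated less with the rest, with medians of 0.667 and 0.685 against 0.725 to 0.785 for the other 20. Within groups, the median SD of a member was 0.81 on the log2 scale, against 0.774 for all genes. The median 95% interval of a member reached 1.36 to either side for 3 arrays against 3, 1.52 for 3 against 2 and 1.66 for 2 against 2. These are unadjusted intervals at the median spread, narrower for members with a small spread, and a difference must be larger still to pass over all probe sets. Every signal outside the control sets was above 0 (lowest 0.3), so a marker above 0 does not tell tissues apart.

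No member passed an adjusted p of 0.05 by limma in any of the 12 comparisons or in either F test, so every difference below is a value with its error and not a call. In the F test over the 8 groups, 0 of 40 members passed against 0.0612% of all probe sets, and 5 had an unadjusted p under 0.05 (7.17% of all genes did). They were Birc5, the survivin gene of the chromosomal passenger complex, the helicase subunit genes Mcm6 and Mcm4, the CDK-binding Cks2, and Ube2c, the ubiquitin-conjugating enzyme of the anaphase-promoting complex. Their adjusted p from limma's moderated F ran from 0.511 for Birc5 to 0.657 for Ube2c. Among the 6 contused groups, 0 of 40 passed, as did 0% of all probe sets, and 4 had an unadjusted p under 0.05 by limma (5.22% of all genes): Mcm6, Mcm4, Cks2 and the cyclin B2 gene Ccnb2.

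**Figure D1:**
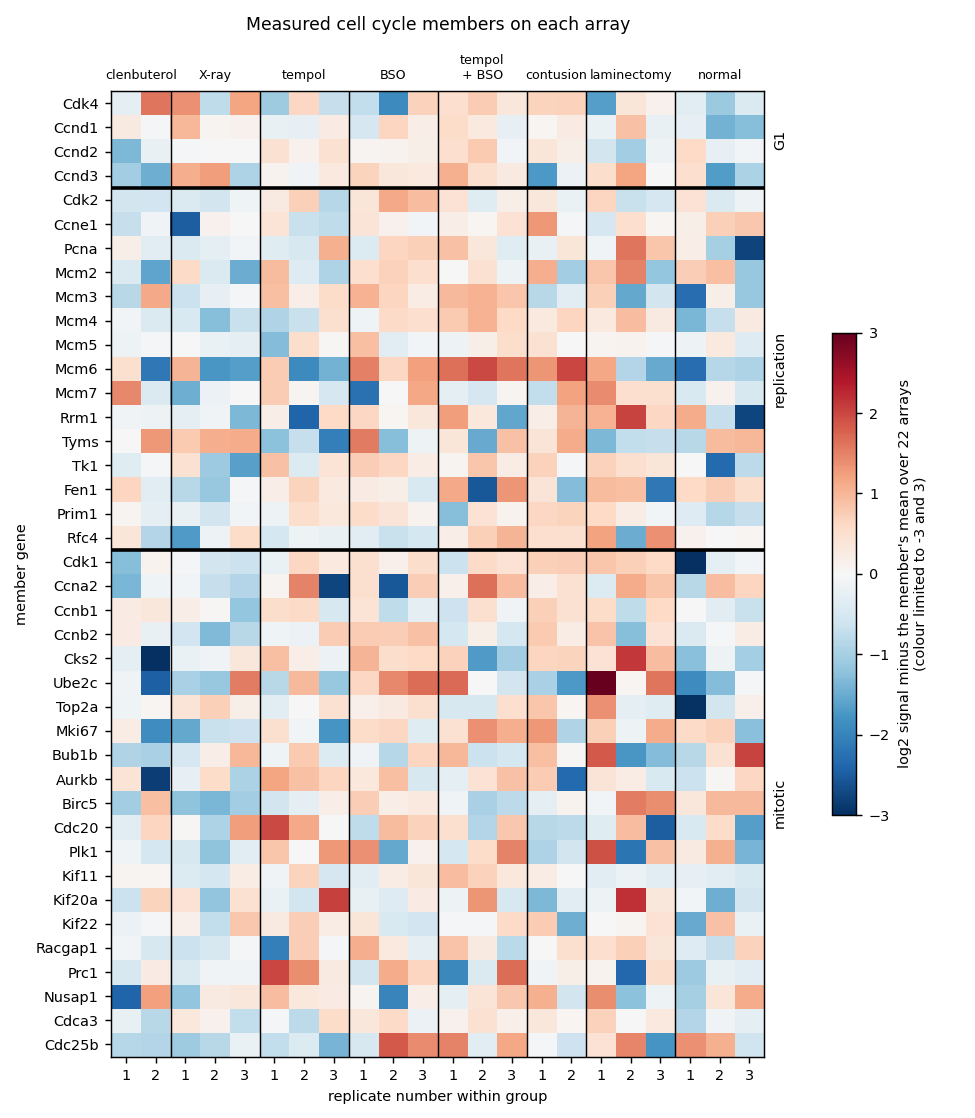
Log2 signal of the 40 measured members on the 22 arrays, each minus the member's mean over all arrays. Rows run through G1, replication and mitotic genes, and columns are arrays by group, numbered by replicate. Red is above and blue below the mean. The clenbuterol and X-ray columns of the replication genes are mostly blue, and single arrays differ from their group, as normal 1 does for Cdk1 and Top2a.

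Laminectomy minus normal asks what the operation without a contusion did. Of the 40 members, 30 had a higher mean in laminectomy cord, with a median difference of 0.37 on the log2 scale, against -0.01 over all genes. The G1 median was 0.68 (3 of 4 higher), the replication median 0.63 (11 of 15 higher) and the mitotic median 0.28 (16 of 21 higher). None passed (0 of 40, against 0.00644% of all probe sets by limma), while 9 had an unadjusted p under 0.05, all of them higher, where 3.05% of all genes were higher at that level. All 3 laminectomy arrays lay above all 3 normal arrays for 9 members (22.5%; 4.88% of all genes) and below for 0 (4.16% of all genes). These were Ccnd1, Mcm4, Mcm7, Tk1, Prim1, Cdk1, Cks2, Ube2c and Cdca3.

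Ube2c, whose enzyme marks mitotic cyclins for destruction, had signals of 2298.2, 201.9 and 593.9 in laminectomy cord, against 52.8, 78.9 and 186.8 in normal cord. Laminectomy 1 was far above the rest, and the groups did not overlap. The log2 difference was 2.82 ± 0.93 (95% interval 0.88 to 4.76, 7.07-fold, adjusted p = 0.674). Cdk1, the kinase that drives entry into mitosis, read 600.6, 556.5 and 513.4 in laminectomy cord, against 39.4, 281.7 and 320.1 in normal cord. The laminectomy arrays were close together, and normal 1 was far below the other normal arrays. Its difference was 1.86 ± 0.62 (3.64-fold, adjusted p = 0.674), and it was 0.89 without laminectomy 2 and normal 1. Cks2, a small partner of the CDKs, read 205.7, 665.2 and 287.3 in laminectomy cord, against 63.7, 135.6 and 75.4 in normal cord. Here laminectomy 2 was highest, and the difference was 1.97 ± 0.68 (adjusted p = 0.701) with both arrays and 1.27 without laminectomy 2 and normal 1. Top2a, the topoisomerase that untangles sister chromatids, read 609.2, 198.2 and 183.7 in laminectomy cord, against 30.4, 160.7 and 264.6 in normal cord. Those groups overlapped, at 1.37 ± 0.63. Mki67, the proliferation antigen, overlapped as well, at 0.56 ± 0.72.

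Among the replication genes, Pcna, the sliding clamp of DNA polymerase, read 1952.4, 6351.7 and 3759.5 in laminectomy cord, against 2404.5, 1047.9 and 308.3 in normal cord. Normal 1 exceeded laminectomy 1, so the groups overlapped, and the difference was 1.97 ± 0.65 (3.92-fold, adjusted p = 0.674). Tk1, the thymidine salvage kinase, read 719.3, 624.5 and 574.4 in laminectomy cord, against 443.1, 87.9 and 259.4 in normal cord. The laminectomy arrays agreed closely, and the difference was 1.56 ± 0.58 (adjusted p = 0.773). Rrm1, the large subunit of ribonucleotide reductase, read 244.2, 483.1 and 180.5 in laminectomy cord, against 254.6, 73.3 and 17.4 in normal cord. The normal arrays spread widely and overlapped with the others, at 2.01 ± 0.88. Mcm4, a helicase subunit, read 180.2, 282.2 and 178.7 in laminectomy cord, against 56.9, 91.5 and 178.6 in normal cord. Only a small gap kept the lowest laminectomy array above normal 3, and the difference of 1.10 ± 0.47 was 0.49 without laminectomy 2 and normal 1. Other helicase subunits differed by 1.07 ± 0.74 for Mcm7, 0.21 ± 0.76 for Mcm2 and 0.13 ± 0.46 for Mcm5. Of the G1 genes, Ccnd1, cyclin D1, read 823.6, 1747.1 and 809.3 in laminectomy cord, against 793.6, 352.5 and 391.0 in normal cord, and differed by 1.14 ± 0.46.

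The replication median depended on single arrays: it was 0.11 without laminectomy 1, 0.90 without laminectomy 2 and 0.98 without laminectomy 3. Likewise the mitotic median was 0.11 without normal 1 and 0.73 without laminectomy 2. Without both laminectomy 2 and normal 1 the medians were 0.56 for replication and 0.56 for mitotic genes. Macrophage and neutrophil markers stood higher in the same arrays: 9 of 11 macrophage markers had a higher mean (median 0.69), with summed signals of 11372.7 to 29808.7 in laminectomy cord and 4436.9 to 6358.1 in normal cord. All 6 measured neutrophil markers had a higher mean (median 1.40), with sums of 1073.4 to 1422.7 in laminectomy cord and 501.2 to 730.5 in normal cord. Astrocyte sums were higher too, at 34730.3 to 59740.2 in laminectomy cord and 21959.6 to 25455.7 in normal cord. Microglial markers overlapped, with sums of 3096.3 to 5301.7 in laminectomy cord and 3372.1 to 4305 in normal cord. Oligodendrocyte progenitor sums also overlapped, at 2284.3 to 4711.7 in laminectomy cord and 1869.1 to 3670.9 in normal cord. The part of these markers in the cell cycle values was not tested.

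**Figure D2:**
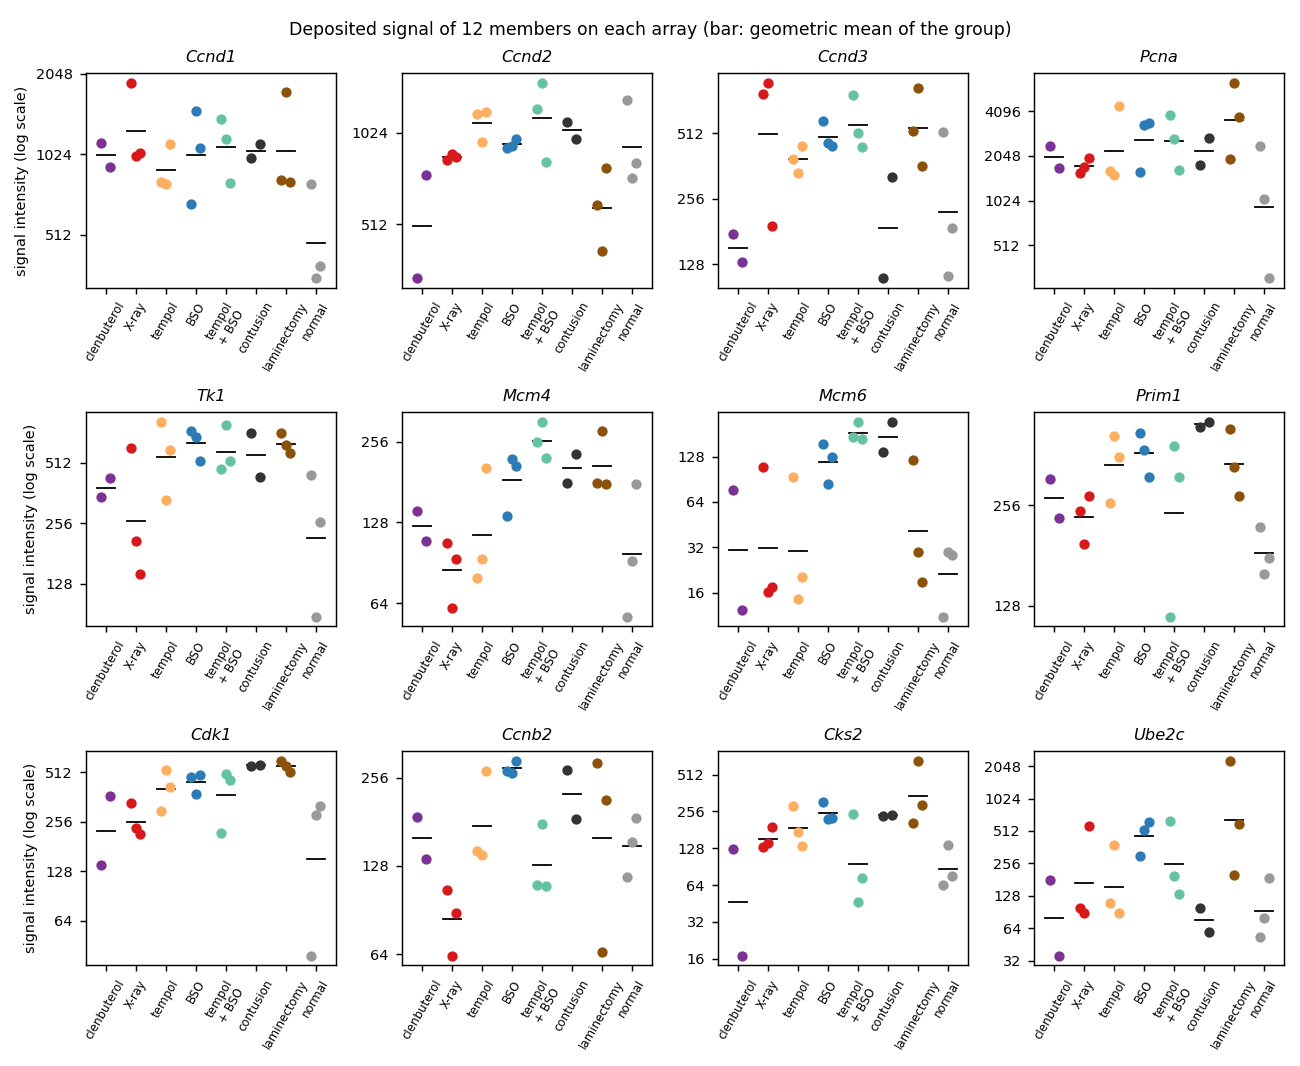
Deposited signal of 12 members on each array, on a logarithmic axis, by group. Points are arrays and bars are geometric means. For Ube2c laminectomy 1 stands at 2298.2, far above the others, for Ccnb2 the 3 X-ray arrays lie below those of every other contused group, and Mcm6 has 1 high array in each of the X-ray, tempol and laminectomy groups.

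Contusion without treatment was set against laminectomy to ask what the impact added. The members showed no common direction: 18 of 40 had a higher mean in contused cord, with medians of -0.03 for replication, -0.19 for mitotic and 0.42 for G1 genes. No member passed (0 of 40, against 0.00322% of all probe sets), and 3 had an unadjusted p under 0.05 by limma, where 5.26% of all genes did. Arrays did not overlap for 6 members that were higher (15%; 9.94% of all genes) and 3 that were lower (7.5%; 10.5% of all genes). Ube2c was the lowest of them, with signals of 99.5 and 58.7 in contused cord, against 2298.2, 201.9 and 593.9 in laminectomy cord, and a difference of -3.09 ± 1.04 (8.52-fold lower, adjusted p = 0.916). Ccnd3, cyclin D3, read 110.7 and 320.8 in contused cord, against 523.1, 826.4 and 362.4 in laminectomy cord (-1.52 ± 0.69). In the other direction, Mcm6 read 137.0 and 217.5 in contused cord, against 121.0, 29.6 and 19.0 in laminectomy cord (2.08 ± 0.97). Tyms, thymidylate synthase, read 193.0 and 317.1 in contused cord, against 57.5, 88.1 and 91.7 in laminectomy cord (1.68 ± 0.80). The further members with the smallest p were the kinesin gene Kif20a (-1.62 ± 0.84), Ccnd2 (0.84 ± 0.45), Birc5 (-1.03 ± 0.57) and Cdk4 (1.08 ± 0.82). Cdk1 differed by 0.02 ± 0.69, its contused arrays reading 556.5 and 569.4. The replication median was 0.37 without contusion 2.

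Against normal cord, contused cord had 28 of 40 members with a higher mean. The replication median was 0.50 (13 of 15 higher), the G1 median 0.66 and the mitotic median 0.09 (12 of 21 higher), and each of these shares its contusion arrays with the comparison above. As before, no member passed (0 of 40, against 0.0483% of all probe sets), and 6 had an unadjusted p under 0.05 by limma, all higher, where 3.69% of all genes were. Arrays did not overlap for 12 members that were higher (30%; 12% of all genes) and 2 that were lower (5%; 12.2%). Mcm6 read 137.0 and 217.5 in contused cord, against 11.1, 29.9 and 28.7 in normal cord, a gap of 3.03 ± 0.97 (8.14-fold, adjusted p = 0.438). The normal signals were dim, and with 32 added to every signal before the log2 the difference was 1.91. Prim1, the catalytic primase subunit that starts new strands, read 440.3 and 455.3 in contused cord, against 220.1, 158.9 and 178.4 in normal cord (1.28 ± 0.48, adjusted p = 0.582). Cdk1 differed by 1.88 ± 0.69, Ccnd1 by 1.14 ± 0.52, Top2a by 1.57 ± 0.71, Tk1 by 1.37 ± 0.65, Mcm4 by 1.06 ± 0.53 and Cks2 by 1.46 ± 0.76. Without laminectomy 2 and normal 1, Cdk1 differed by 0.91, Top2a by 0.65 and Mcm4 by 0.68. The mitotic median depended on single arrays, at 0.57 without contusion 2, 0.42 without normal 2 and 0.40 without normal 3, and it was 0.36 over members with a mean log2 signal of at least 6. The replication median was 0.77 without contusion 1. Macrophage markers were higher here for 10 of 11 genes (median 2.58, 3 passing), with sums of 23828.4 to 24573.8 in contused cord and 4436.9 to 6358.1 in normal cord. Oligodendrocyte progenitor sums were lower, at 1516.9 to 1593.3 in contused cord and 1869.1 to 3670.9 in normal cord. Neuron sums were lower too, at 5194.5 to 10499.1 in contused cord and 21943 to 37751.7 in normal cord. The part of these markers was not tested.

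X-rays damage DNA, and dividing cells are the most sensitive to them. The X-ray comparison asks how the cell cycle genes stood after 10 Gy. In X-ray cord 30 of the 40 members had a lower mean than in untreated contused cord, with a median difference of -0.37 on the log2 scale against -0.01 over all genes. Replication genes stood lowest, at a median of -0.79 with 13 of 15 lower. The mitotic median was -0.36 with 15 of 21 lower, and the G1 median was 0.09. No member passed (0 of 40, against 0% of all probe sets), and 4 had an unadjusted p under 0.05 by limma, all lower, where 2.30% of all genes were lower and 2.27% higher. Markers of other cells also differed. Oligodendrocyte markers had a higher mean in X-ray cord for 7 of 7 genes (median 0.44). Their sums overlapped, at 37557.2 to 51591.8 in X-ray cord and 31834.6 to 49040 in contused cord. Astrocyte markers were higher for 7 of 8 (median 0.30), with sums of 25747.9 to 26355.4 in X-ray cord and 15387.2 to 17490.5 in contused cord. The part of these markers in the cell cycle values was not tested. All 3 X-ray arrays lay below both contusion arrays for 13 members (32.5%; 12.3% of all genes) and above for 0 (12.5% of all genes). The 13 were Ccnd2, Mcm4, Mcm6, Rrm1, Prim1, Cdk1, Ccna2, Ccnb1, Ccnb2, Cks2, Birc5, Racgap1 and Prc1.

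Ccnb2, cyclin B2, a partner of CDK1 in mitosis, read 106.3, 63.3 and 88.7 in X-ray cord, against 271.2 and 185.6 in contused cord. All X-ray arrays were low, and the difference was -1.41 ± 0.55 (95% interval -2.57 to -0.26, 2.66-fold lower, adjusted p = 0.9999). Mcm6 read 109.8, 16.3 and 17.4 in X-ray cord, against 137.0 and 217.5 in contused cord. X-ray 1 was close to the contusion arrays and the others were far below, for a difference of -2.46 ± 0.97. Those lower X-ray signals were dim, so the size of the Mcm6 difference is uncertain. Under other processing settings, apart from leaving out single arrays, it ran from -2.46 to -1.56. Mcm4 read 107.3, 61.1 and 93.2 in X-ray cord, against 180.2 and 231.4 in contused cord, without overlap (-1.27 ± 0.53). Ccne1, the cyclin E1 gene that opens S phase, read 49.1, 299.4 and 275.4 in X-ray cord, against 669.0 and 263.6 in contused cord. X-ray 1 alone was very low and the groups overlapped (-1.40 ± 0.66). Prim1 read 246.0, 196.2 and 272.2 in X-ray cord, against 440.3 and 455.3 in contused cord (-0.92 ± 0.48). Birc5 read 27.4, 24.7 and 30.9 in X-ray cord, against 52.9 and 68.2 in contused cord (-1.12 ± 0.57). Tk1 overlapped, at -1.09 ± 0.65, with 606.1 in X-ray 1 beside 208.6 and 142.9 in the other X-ray arrays. Cdk1 read 331.4, 233.5 and 216.5 in X-ray cord, against 556.5 and 569.4 in contused cord, without overlap (-1.14 ± 0.69).

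Not all members stood low after X-rays. Ccnd3 read 775.1, 868.9 and 191.5 in X-ray cord, against 110.7 and 320.8 in contused cord (1.42 ± 0.69), with X-ray 3 inside the contusion range. Top2a differed by -0.03 ± 0.71, Ccnd1 by 0.25 ± 0.52, Pcna by -0.34 ± 0.73 and Ube2c by 1.16 ± 1.04, intervals that leave room for a difference either way. The other probe set of Top2a gave -1.16, so its direction depended on the set. Mki67 differed by -1.14 ± 0.81, with X-ray signals of 31.2, 57.6 and 59.5 beside contusion signals of 223.9 and 49.1. The contusion group has 2 arrays, and the mitotic median rested on which of them was used: it was -0.11 without contusion 1 and -0.66 without contusion 2. The replication median was -0.45 without X-ray 1.

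Set against the equally weighted mean of the other 5 contused groups, which brings in 13 arrays in place of 2, X-ray cord again had mostly lower values. Of the 40 members 31 had a lower mean, with medians of -0.60 for replication (14 of 15 lower), -0.38 for mitotic (16 of 21 lower) and 0.37 for G1 genes (1 of 4 lower). No member passed (0 of 40, against 0.00644% of all probe sets), and 4 had an unadjusted p under 0.05 by limma, all lower, where 3.44% of all genes were. Ccnb2 was the sole member whose X-ray arrays lay below every other contused array (2.5% of members; 0.373% of all genes lay so, and 0.626% above). The other contused arrays of Ccnb2 ran from 109.7 to 292.2, with the closest in the tempol plus BSO group. Its difference was -1.14 ± 0.39 (95% interval -1.96 to -0.33, adjusted p = 0.633). Next came Birc5 at -1.09 ± 0.40 (adjusted p = 0.685), Mcm4 at -0.996 ± 0.37 (adjusted p = 0.691) and Tk1 at -1.03 ± 0.46 (adjusted p = 0.764). The remaining 4 of the 8 smallest p were Mcm6 (-1.36 ± 0.68), Ccne1 (-0.82 ± 0.46), Tyms (0.99 ± 0.56) and Mki67 (-0.97 ± 0.57). Ccne1 was 0.03 without X-ray 1. Mcm6 ran from -1.36 to -0.85 under other processing settings, apart from leaving out single arrays. Tk1 was -0.37 over the mean of its probe sets. Macrophage markers were higher in X-ray cord for 10 of 11 genes against these groups (median 0.52). Their sums of 22704.3 to 25652.5 in X-ray cord lay above those of clenbuterol, tempol, BSO and tempol plus BSO cord (11689.9 to 20935.7 over the 4 groups) and overlapped with contused cord (23828.4 to 24573.8). Against contused cord alone 6 of 11 were higher (median 0.07). Neutrophil sums were 3304.7 to 4750.4 in X-ray cord and 1702.1 to 2733.1 in contused cord. The part of these markers was not tested.

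Clenbuterol treatment was compared with untreated contusion. In clenbuterol cord 31 of the 40 members had a lower mean, with a median of -0.48 on the log2 scale against -0.03 over all genes. The replication median was -0.64 (12 of 15 lower), the mitotic median -0.47 (15 of 21 lower) and the G1 median -0.18 (4 of 4 lower). By limma 0 of 40 members passed, against 0.00322% of all probe sets, and 3 had an unadjusted p under 0.05, all lower, where 3.06% of all genes were. Both clenbuterol arrays lay below both contusion arrays for 18 members (45%; 19.5% of all genes) and above for 2, Cdc20 and Plk1 (5%; 17.3%). Of the 18, 9 were replication genes, 8 mitotic and 1 a G1 gene. The 5 probe sets of Cdc20 differed in sign, at 0.96 for the set used and 0.46, 0.006, -0.32 and -0.72 for the others.

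Cks2 read 125.8 and 17.0 in clenbuterol cord, against 237.1 and 241.1 in contused cord. Clenbuterol 2 was far below clenbuterol 1, and the difference was -2.37 ± 0.83 (5.17-fold lower, adjusted p = 0.827). Mcm6 read 76.6 and 12.3 in clenbuterol cord, against 137.0 and 217.5 in contused cord (-2.49 ± 1.06, adjusted p = 0.929). Clenbuterol 2 was dim for Mcm6, so the size of this difference is uncertain. Under other processing settings, apart from leaving out single arrays, it ran from -2.49 to -1.57. Ccnd2, cyclin D2, read 341.5 and 744.8 in clenbuterol cord, against 1105.3 and 978.8 in contused cord. Clenbuterol 1 was the lower array here, at a difference of -1.04 ± 0.49. Cdk1 read 139.9 and 364.5 in clenbuterol cord, against 556.5 and 569.4 in contused cord (-1.32 ± 0.76). The others of the smallest p were Ccne1 (-1.02 ± 0.72), Prim1 (-0.74 ± 0.52), the spindle checkpoint kinase gene Bub1b (-1.40 ± 1.02) and Cdca3 (-0.72 ± 0.53), whose product acts in the turnover of the mitotic brake WEE1. Pcna differed by -0.13 ± 0.80, Ccnd1 by -0.05 ± 0.57, Ube2c by 0.07 ± 1.13 and Mki67 by -1.02 ± 0.89. Single arrays carried several of these values: without clenbuterol 2 Cks2 was -0.93 and Mcm6 -1.17, without clenbuterol 1 Ccnd2 was -0.48 and Cdk1 -0.63, and without contusion 1 Ccne1 was -0.35. The mitotic median was -0.83 without contusion 2 and -0.17 without contusion 1.

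Against the other 5 contused groups together, clenbuterol cord had 32 of 40 members with a lower mean, and medians of -0.24 for replication, -0.36 for mitotic and -0.53 for G1 genes. Without clenbuterol 2 the replication median was -0.09, and without clenbuterol 1 the mitotic median was -0.15. None passed (0 of 40, against 0.00644% of all probe sets), and 3 had an unadjusted p under 0.05 by limma, all lower, where 3.92% of all genes were lower and 2.12% higher. They were Cks2 (-1.92 ± 0.63, adjusted p = 0.526), Ccnd2 (-1.0 ± 0.37, adjusted p = 0.641) and Ccnd3 (-1.39 ± 0.57, adjusted p = 0.730). Cks2 was -0.47 without clenbuterol 2 and -3.36 without clenbuterol 1, and Ccnd2 was -0.44 without clenbuterol 1. Both clenbuterol arrays lay below all 14 other contused arrays for Ccnd2 and Bub1b (5% of members; 1.55% of all genes), and above them for no member (1.09% of all genes). For Ccnd2 the other contused arrays ran from 818.3 to 1489.3, and for Bub1b from 76.5 to 278.4 beside clenbuterol signals of 74.6 and 71.0. Further down came Aurkb (-1.30 ± 0.72), Mcm6 (-1.41 ± 0.80), Cdk2 (-0.69 ± 0.44), Cdca3 (-0.62 ± 0.40) and Mcm2 (-1.03 ± 0.70). Aurkb, the kinase of the passenger complex, read 329.7 and 34.9 in clenbuterol cord and was 0.32 without clenbuterol 2. Without that array Mcm6 was -0.086 and Mcm2 -0.46. Macrophage markers were lower for 9 of 11 genes against untreated contusion (median -0.94), with sums of 11689.9 to 13363.4 in clenbuterol cord and 23828.4 to 24573.8 in contused cord. Oligodendrocyte markers were higher for 7 of 7 genes, both against untreated contusion (median 0.54) and against the other 5 groups (median 0.62), with sums of 44745.3 to 72211.4 in clenbuterol cord and 31834.6 to 49040 in contused cord. Astrocyte sums were 20862.5 to 26760.6 in clenbuterol cord and 15387.2 to 17490.5 in contused cord. The part of these markers in the cell cycle values was not tested.

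Clenbuterol and X-ray cord were also set against each other directly, since both comparisons above share the same 2 contusion arrays. No member passed (0 of 40, against 0% of all probe sets), and 2 had an unadjusted p under 0.05 by limma, both lower in clenbuterol cord (2.10% of all genes). The replication median was 0.20, the mitotic median -0.17 and the G1 median -0.53. Arrays did not overlap for 3 members higher in clenbuterol cord, Mcm4, Ccnb1 and Ccnb2 (7.5%; 9.59% of all genes), and 5 lower, Ccnd2, Ccnd3, Cks2, Top2a and Bub1b (12.5%; 11.8%). Other probe sets of Ccnb1 and Top2a went the other way. For Ccnb1 the other set gave -1.02 beside 0.59 for the set used, and for Top2a 0.51 beside -0.45. Ccnd3 read 176.6 and 131.3 in clenbuterol cord, against 775.1, 868.9 and 191.5 in X-ray cord, a difference of -1.73 ± 0.69. Cks2 differed by -1.72 ± 0.76. For the others with the smallest p the differences were 1.14 ± 0.57 for Birc5, -0.75 ± 0.45 for Ccnd2, 0.92 ± 0.55 for Ccnb2, 1.05 ± 0.82 for Mcm7, -1.16 ± 0.93 for Bub1b and -0.99 ± 0.86 for Aurkb. Without clenbuterol 2 Aurkb stood at 0.63, Cks2 at -0.28 and Birc5 at 0.17, and without clenbuterol 1 Ccnd2 stood at -0.19 and Mcm7 at 0.11. The mitotic median was 0.15 without clenbuterol 1 and 0.14 without X-ray 3.

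**Figure D3:**
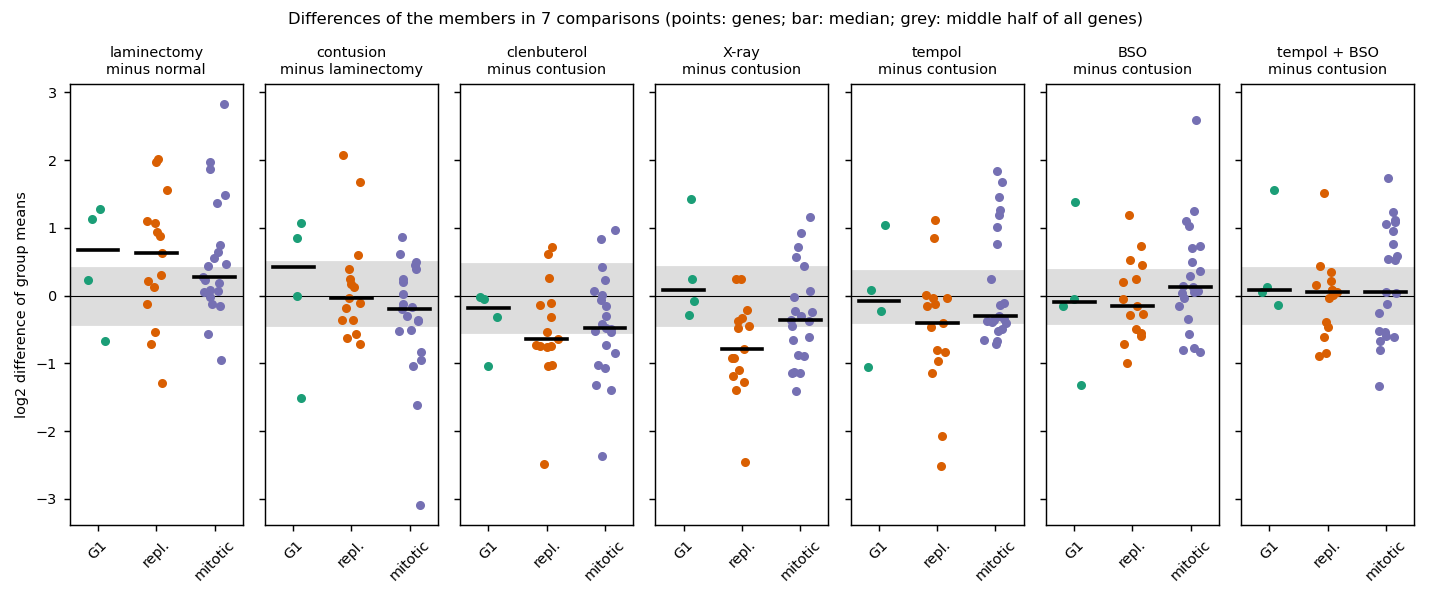
Log2 differences of the G1, replication and mitotic members in 7 comparisons. Points are genes, black bars are class medians, and the grey band holds the middle 50% of all 14217 genes. The replication bar lies at 0.63 for laminectomy minus normal, -0.64 for clenbuterol minus contusion and -0.79 for X-ray minus contusion, and inside the grey band for contusion minus laminectomy and for BSO and tempol plus BSO minus contusion.

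Tempol, BSO and their combination were each compared with the same 2 contusion arrays. In tempol cord, against contusion, the replication median was -0.41 (3 of 15 higher) and the mitotic median -0.29 (8 of 21 higher). None passed (0 of 40, against 0% of all probe sets), and 2 had an unadjusted p under 0.05 by limma, both lower (1.27% of all genes). Arrays did not overlap for 5 higher members (12.5%; 7.76% of all genes) and 6 lower ones (15%; 8.61%). Mcm6 read 93.0, 14.5 and 20.3 in tempol cord, against 137.0 and 217.5 in contused cord (-2.52 ± 0.97). Tempol 2 and tempol 3 were dim for Mcm6, so the size of this difference is uncertain. Under other processing settings, apart from leaving out single arrays, it ran from -2.55 to -1.61. Tyms read 62.8, 91.8 and 35.7 in tempol cord, against 193.0 and 317.1 in contused cord (-2.07 ± 0.80). Higher values went to Cdc20, the activator of the anaphase-promoting complex (1.84 ± 0.92), Aurkb (1.68 ± 0.86), Mcm3 (1.12 ± 0.70), Ccnd3 (1.04 ± 0.69) and Kif20a (1.26 ± 0.84), while Mcm4 differed by -0.83 ± 0.53. The contusion signals of Aurkb were 418.9 and 49.2, and its difference was 0.14 without contusion 2 and 3.23 without contusion 1. Ccnd3 was 0.27 without contusion 1, Kif20a 0.45 without tempol 3, and Cdc20 0.71 over the mean of its probe sets. The mitotic median was 0.01 without contusion 1, -0.04 without tempol 1 and -0.003 without tempol 3, and the replication median was -0.65 without contusion 2.

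In BSO cord the medians were -0.15 for replication and 0.13 for mitotic genes, and both turned with single arrays, at 0.07 for replication without BSO 1 and -0.10 for mitotic genes without contusion 2. No member passed (0 of 40, against 0% of all probe sets), and 1 had an unadjusted p under 0.05 by limma, in the higher direction (1.70% of all genes). It was Ube2c, which read 298.1, 528.1 and 622.0 in BSO cord, against 99.5 and 58.7 in contused cord, without overlap (2.59 ± 1.04). Arrays did not overlap for 6 higher members (15%; 8.26% of all genes) and 5 lower ones (12.5%; 8.43%). The rest of the smallest p were Ccnd3 (1.38 ± 0.69), Mcm3 (1.20 ± 0.70), Cdk4 (-1.32 ± 0.82), Cdc25b, a phosphatase that activates CDK1 (1.25 ± 0.85), Ccnb1 (-0.80 ± 0.57), Cdk2 (0.73 ± 0.52) and the clamp loader gene Rfc4 (-1.0 ± 0.72). With tempol plus BSO both medians were 0.05. By limma 0 of 40 members passed, against 0% of all probe sets, and 2 had an unadjusted p under 0.05, both higher (1.89% of all genes), Ccnd3 (1.56 ± 0.69) and Mcm3 (1.51 ± 0.70). Mcm3 read 291.8, 306.6 and 264.5 with tempol plus BSO, against 84.4 and 120.2 in contused cord. Arrays did not overlap for 5 higher members (12.5%; 8.88% of all genes) and 3 lower ones (7.5%; 8.88%). The other 6 were Prim1 (-0.88 ± 0.48), Cks2 (-1.34 ± 0.76), Ube2c (1.74 ± 1.04), Ccnb2 (-0.80 ± 0.55), Aurkb (1.12 ± 0.86) and Cdc25b (1.09 ± 0.85). Aurkb turned to -0.43 without contusion 2, and Ccnd3 was 0.79 without contusion 1. For this group the mitotic median ran from -0.33 without contusion 2 to 0.46 without contusion 1, and the replication median was -0.25 without contusion 2.

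When the 6 contused groups together were set against the 2 uninjured groups, which mixes injury with treatment, the members divided evenly, with 21 of 40 higher. The median was 0.08 for replication and -0.13 for mitotic genes, and single arrays turned both: the mitotic value was 0.14 without laminectomy 1 and 0.07 without normal 3, and the replication value was -0.045 without normal 3. None passed (0 of 40, against 0.319% of all probe sets), 2 higher and 1 lower member had an unadjusted p under 0.05 by limma (11.2% of all genes in either direction, 5.50% higher), and arrays did not overlap for 0 members (0.106% of all genes higher, 0.0774% lower). Birc5 came nearest to the threshold in any comparison, at -1.15 ± 0.30 (2.22-fold lower, adjusted p = 0.133). Its signals in the 16 contused arrays ran from 24.7 to 119.4 around a median of 52.4, against 60.1 to 184.8 around a median of 125.2 in the 6 uninjured arrays, and the X-ray arrays were among the lowest. Mcm3 (1.00 ± 0.37) and Mcm6 (1.23 ± 0.51) followed, at 0.43 and 0.88 without laminectomy 2 and normal 1. Smaller gaps were those of Ccnd1 (0.57 ± 0.27), the spindle motor gene Kif11 (0.43 ± 0.23), Cdk4 (0.75 ± 0.43), Top2a (0.61 ± 0.37) and Prc1, a bundler of midzone microtubules (0.75 ± 0.47). Top2a was 0.15 without normal 1 and 0.02 without laminectomy 2 and normal 1, and Prc1 was 0.30 without laminectomy 2 and 0.17 without both arrays.

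The level of each class on each array was taken as the median over its genes of the log2 signal minus the gene's own mean over all arrays. For replication genes the group means were -0.19 in clenbuterol, -0.27 in X-ray, -0.05 in tempol, 0.37 in BSO, 0.38 in tempol plus BSO, 0.38 in contusion, 0.38 in laminectomy and -0.17 in normal cord, with a pooled SD of 0.23 within groups. All 3 X-ray arrays (-0.43 to -0.09) and both clenbuterol arrays (-0.31 and -0.07) lay below the contusion arrays (0.37 and 0.39). They also lay below every BSO and tempol plus BSO array, and overlapped with tempol (-0.40 to 0.20) and normal cord (-0.48 to -0.005). For mitotic genes the means were -0.17 in clenbuterol, -0.36 in X-ray, 0.25 in tempol, 0.33 in BSO, 0.22 in tempol plus BSO, 0.20 in contusion, 0.33 in laminectomy and -0.29 in normal cord, with a pooled SD of 0.23. There the X-ray arrays (-0.54 to -0.11) lay below every tempol, BSO, tempol plus BSO, contusion and laminectomy array, and overlapped with clenbuterol and normal cord.

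Genes of the same processes outside the 42 come from the same arrays and are no separate test. Of 30 further replication genes 26 were measured, and of 36 further mitotic genes 29, with none passing in the comparisons that follow. Their medians did not always have the sign of the members': in all contused minus all uninjured arrays the further replication genes stood at -0.19 beside 0.08 for the members, in tempol plus BSO minus contusion at -0.04 beside 0.05, and the further mitotic genes stood at 0.08 beside -0.17 in clenbuterol minus X-ray. In laminectomy minus normal their medians were 0.32 (19 of 26 higher) and 0.18 (21 of 29 higher). An unadjusted p under 0.05 by limma was reached by 1 and 2 genes, all higher, where 3.05% of all genes were higher. The largest were the kinesin gene Kif18a (2.29 ± 0.73) and Gins1 of the replicative helicase (1.80 ± 0.86). Gins1 read 51.1, 65.4 and 143.9 in laminectomy cord, against 9.9, 120.1 and 9.5 in normal cord. Those groups overlapped, and normal 1 and normal 3 were dim, so the size of the Gins1 difference is uncertain. In X-ray minus contusion the medians were -0.34 (17 of 26 lower) and -0.43 (19 of 29 lower). At that level stood 2 and 2 genes, all lower, where 2.3% of all genes were lower. Ect2, which starts the cleavage furrow, stood at -3.21 ± 0.95, the nuclear lamina gene Lmnb1 at -1.41 ± 0.42, the origin recognition gene Orc1 at -1.94 ± 0.87 and the RNA-removing Rnaseh2a at -1.91 ± 0.90. Ect2 and Orc1 were dim, with X-ray signals of 8.7, 7.4 and 12.3 for Ect2 and 9.0, 4.6 and 5.0 for Orc1, so the size of their differences is uncertain. In clenbuterol minus contusion the medians were -0.44 (16 of 26 lower) and -0.22 (21 of 29 lower), with 0 genes at that level (5.26% of all genes in either direction). On the scale of class levels given above, the 3 X-ray arrays of the further mitotic genes averaged -0.30 (-0.37 to -0.20), below all other contused arrays, of which the lowest was a clenbuterol array at -0.13.

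Of 24 brakes and regulators of the cycle 23 were measured, and they showed no common direction after X-rays, with 12 of 23 higher than in contused cord (median 0.03) and 0 passing. Ccng1, the p53 target cyclin G1, read 1489.7, 1346.3 and 1553.4 in X-ray cord, against 588.3 and 450.7 in contused cord. The X-ray arrays lay above every other array of the series, at a difference of 1.5 ± 0.61 from contusion (adjusted p = 0.9999) and 1.67 ± 0.43 from the other contused groups (3.19-fold, adjusted p = 0.430). Cdkn1a, the p53 target that encodes the CDK inhibitor p21, read 1280.4, 1921.1 and 2712.3 in X-ray cord, against 1275.4 and 909.6 in contused cord, at 0.81 ± 1.20. Its arrays in the other contused groups ran from 162.2 to 3869.1, so its spread was wide. In laminectomy minus normal Ccng1 differed by 1.16 ± 0.54.

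**Figure D4:**
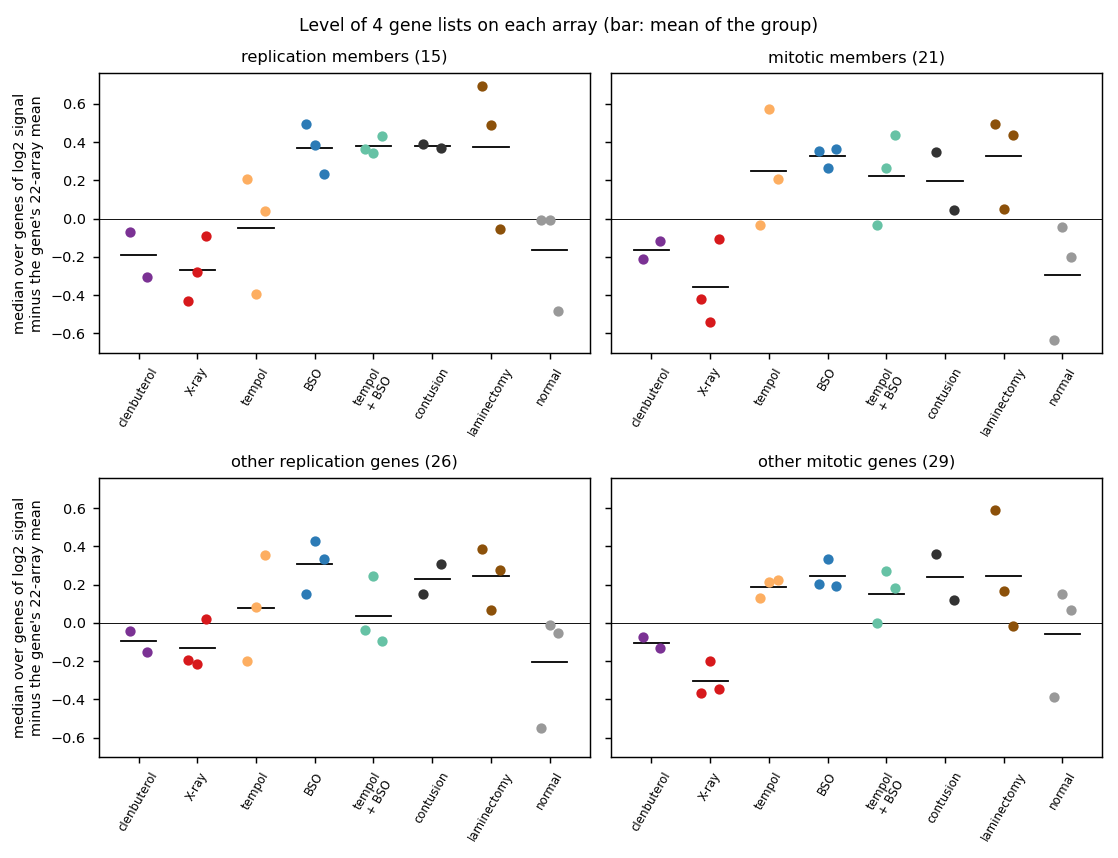
Level of 4 gene lists on each array, as the median over genes of the log2 signal minus the gene's mean over the 22 arrays. Points are arrays and bars are group means. In every panel the X-ray and clenbuterol means lie below 0 and the contusion, BSO and laminectomy means above it, and the normal means lie below 0.

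Once group means were removed, the members showed little common variation from array to array. The median correlation between pairs over the 22 arrays was -0.05 among replication genes (105 pairs), 0.02 among mitotic genes (210 pairs), 0.03 between them (315 pairs) and 0.00 among all gene pairs, which share arrays and their scaling. The closest pairs were Cdc20 with Cdc25b (0.86), Ube2c with Bub1b (0.79), Cdk1 with Top2a (0.74) and Pcna with Rrm1 (0.74), given as a description. For 9 of the 40 members several probe sets could be compared, and they did not always give like values. In laminectomy minus normal the 3 sets of Tk1 gave 1.56, 1.96 and 0.85 and the 2 of Top2a gave 1.37 and 2.20, whereas the 3 of Ccnd1 gave 1.14, 1.98 and -0.56. In X-ray minus contusion the 2 sets of Top2a gave -0.03 and -1.16, and the 5 of Cdc20 gave values from -0.66 to 0.92.

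Several members were described above only in part. Over the 22 arrays the flap endonuclease gene Fen1 ran from 15.9 to 232.3, the chromosome-binding kinesin gene Kif22 from 57.3 to 300.7, the spindle gene Nusap1 from 140.0 to 1957.0 and the Polo kinase gene Plk1 from 86.2 to 1487.9. Racgap1, needed for cytokinesis, ran from 41.0 to 357.2, and Ccna2, cyclin A2, from 6.0 to 126.3. Fen1 differed by -0.72 ± 0.87 in laminectomy minus normal and -0.21 ± 0.97 in X-ray minus contusion, Plk1 by 0.23 ± 0.90 and 0.08 ± 1.00, Nusap1 by -0.16 ± 0.88 and -0.45 ± 0.98, and Kif22 by 0.44 ± 0.60 and 0.44 ± 0.67. Each of these differences was smaller than its standard error. Mcm6, Ccna2, Birc5, Kif20a and Cdc25b had mean log2 signals under 6, the level used for the filter on dim probe sets.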

How the data were processed

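Total RNA of rat spinal cord was hybridised to Affymetrix rat arrays after biotin labelling, per the labels' protocols. The deposited intensities are linear, given to 1 decimal. RMA is named in the submitters' processing notes, but the values show neither a log scale nor equal quantiles, and each array has a mean of about 250.0 once 2% is trimmed at each end. No step beyond these is given in the sources used here. Array-wide scaling sets differences relative to the average probe set, and a change common to all genes would be lost.

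The log2 of the intensity was fitted in R 4.3.3 with limma 3.58.1 (lmFit, eBayes) as 8 group means over 22 arrays that share 1 estimate of spread (residual df 14, prior df 4.71). Two-sided p-values were adjusted after Benjamini-Hochberg across 31042 probe sets, without the 57 control sets, at a threshold of 0.05. Gene names came from the platform annotation, updated by Entrez number (20758 of 20826 probe sets with 1 symbol matched), and 436 probe sets with several symbols and 9780 without one stayed unnamed. The members and lists were chosen with earlier results of these data known. In each comparison the text names the 8 members with the smallest p, a set of well-known cycle genes, and of the other lists at most the 4 smallest p with Cdkn1a and Ccng1. Members are described by counts and medians beside all 14217 genes. Motifs were searched in RefSeq promoter windows (GRCr8).

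The fit was run on simulated data with independent normal noise. This checked the mean size of its estimates, and the sign only of those that passed the threshold. No requirement was set on how many known changes passed the threshold. Replicate numbers did not pair the samples: same-numbered laminectomy and normal arrays had deviations correlated at -0.16, -0.10 and 0.10. No 2 arrays were identical, and the number of arrays limits the precision. The alternatives were quantile normalization, log2 of signal plus 32, a filter at a mean log2 of 6, eBayes with trend and robust settings, the compared groups alone, array weights, the replicate block, the mean of a gene's probe sets, a fit without laminectomy 2 and normal 1, and leaving out each array.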

Additional observations from a re-analysis of the deposited data

How the results depend on the processing

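Across 261 counts over the comparisons, F tests and alternatives, 0 members passed in each, and with the replicate number as a block 0 members passed in any comparison, where replication medians of laminectomy minus normal and X-ray minus contusion were 0.63 and -0.87. Of 1639 values of members named for a small p, 1635 had the same direction without passing and 4 turned sign: leaving out 1 array, Aurkb ran from -0.43 (without contusion 2) to 2.66 in tempol plus BSO minus contusion, from -2.61 to 0.63 (without clenbuterol 2) in clenbuterol minus X-ray and from -2.92 to 0.32 (without clenbuterol 2) in clenbuterol minus the other contused groups, and Ccne1 from -1.28 to 0.026 (without X-ray 1) in X-ray minus the other contused groups. Of 414 values of class medians, 384 moved by less than the spread between replicates. The cause of the other shifts was not tested. Of 96 member differences named for a small p, 31 fell below 50% of their value or turned when 1 array was left out.

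With fewer genes (mean log2 of at least 6) the mitotic median of contusion minus normal was 0.36, with the mean of probe sets 0.35, and without laminectomy 2 and normal 1 that of laminectomy minus normal was 0.56. Leaving out 1 array, replication medians ran from 0.11 to 0.98 in laminectomy minus normal, -0.14 to 0.37 in contusion minus laminectomy, 0.41 to 0.77 in contusion minus normal, -0.90 to -0.45 in X-ray minus contusion, -0.65 to -0.30 in tempol minus contusion and -0.25 to 0.17 in tempol plus BSO minus contusion. Mitotic medians ran from 0.11 to 0.73 in laminectomy minus normal, 0.17 to 0.57 in contusion minus normal, -0.83 to -0.17 in clenbuterol minus contusion, -0.66 to -0.11 in X-ray minus contusion, -0.42 to 0.0092 (without contusion 1) in tempol minus contusion, -0.33 to 0.46 in tempol plus BSO minus contusion, -0.25 to 0.15 in clenbuterol minus X-ray and -0.26 to 0.14 in all contused minus all uninjured arrays. Where 1 array of a group of 2 was left, it was assumed to vary like the other groups.

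With 2 or 3 arrays a group, a lack of calls does not show that members were alike.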
